A study of Mus musculus with 12 samples.

Results

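The proteasome genes were read in mouse oocytes that had lost mitofusin 1, mitofusin 2 or both. They were chosen by symbol alone, as all genes whose names start with Psma to Psmg and a number, pseudogenes left out, which gave 44 of the 11385 genes in the count table. The 44 hold 7 alpha-ring genes (Psma), 8 beta-ring genes (Psmb), 6 ATPase genes (Psmc), 14 lid and base genes (Psmd), 4 activator genes (Psme), the inhibitor Psmf1 and 3 assembly genes (Psmg). Classes follow the symbols, so the lid and base class also holds chaperones of base assembly such as Psmd9 and Psmd10. The 44th is Psmc3ip, which matches by its symbol only. It encodes a meiotic recombination factor and is given apart. Psma8, Psmb8, Psmb9, Psmb10 and Psmg2 were not among the 11385 genes under these symbols, so they were not analysed.

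The RNA came from pools of 50 denuded oocytes at the germinal-vesicle stage, the stage of arrest in meiotic prophase. The 4 groups were Mfn1-/-, Mfn2-/-, Mfn1&2-/- and WT, with 3 pools each. All mice are labelled C57BL/6J, were 21 to 23 days old and had not been primed with hormones. The labels give neither the design of the deleted alleles nor a Cre driver, and they are silent on whether a group's pools stem from separate animals, so p-values measure the spread between pools, which may be technical in part.

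The proteasome is the barrel-shaped protease that degrades proteins tagged with ubiquitin. Its core is built of stacked rings: alpha subunits form the gated outer rings, and beta subunits form the inner rings that carry the proteolytic sites. A regulatory cap sits on the core. The ring of Psmc ATPases in its base unfolds the substrate, and the Psmd subunits of base and lid bind and remove ubiquitin. Activators of the Psme family can take the place of the cap, and Psmg proteins guide assembly of the core. In oocytes, timed proteolysis of cyclin B and securin drives exit from meiotic divisions, and much of the mRNA present at the germinal-vesicle stage is stored for later use.

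Libraries held 11575357 to 16024893 counts, and 3 counts were worth 0.188 to 0.253 CPM (counts scaled to library size by TMM). This floor covers counting error only. The targeted genes matched the labels. Mfn1 stood at 17.8, 18.9 and 17.7 CPM in Mfn1-/- pools and 26.4, 19.1 and 14.8 CPM in Mfn1&2-/- pools, against 264.1, 278.2 and 296.8 CPM in WT pools. Mfn2 stood at 9.19, 10.8 and 13.5 CPM in Mfn2-/- pools and 12.3, 10.1 and 9.99 CPM in Mfn1&2-/- pools, against 87.2, 73.4 and 68.4 CPM in WT pools. All 12 oocyte markers listed were measured, among them Gdf9. WT replicate 3 stood apart in granulosa markers, of which 11 of 14 listed were measured: they summed to 893.3 CPM there and to 441.6 to 542.2 CPM in the other 11 libraries. Values after ± are SD over 3 pools for CPM, and approximate standard errors for log2 fold changes. A gene was called changed at an adjusted p below 0.05, by edgeR's quasi-likelihood test with Benjamini-Hochberg adjustment over all 11385 genes.

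The level of proteasome mRNA per kb of exon differed widely between subunits that sit in the complex side by side. Levels between genes were compared as CPM per kb of exon. The length used was that of the merged exons of a gene's annotated coding transcripts, not of the transcript present. Among alpha-ring genes it ran from 1.15 kb for Psma6 to 2.91 kb for Psma2, so ranks depend in part on the annotation. In WT oocytes 35 of the 44 genes lay between 10 and 100 CPM per kb, 2 lay above and 7 below. Psmd4, the ubiquitin receptor of the base, was highest at 177.5 ± 24.5 CPM per kb in WT. Psmb6, which carries the caspase-like site, followed at 127.7 ± 18.2 CPM per kb. Psmb5, which carries the chymotrypsin-like site of the same ring, stood at only 3.41 ± 1.66 CPM per kb, a mean level 37.5 times below that of Psmb6. Psmb7, which carries the trypsin-like site, was in between at 40.005 ± 2.33 CPM per kb. Its exons overlap Nek6 on the opposite strand over 34.9% of their length, and 20.0% of its 100-base stretches also occur in Nek6. Reads from near-identical copies could bear on such levels: 24.9% of the 100-base stretches of the Psmb5 transcript also occur in Gm3375 or Mir686, and how the authors counted such reads is not known here.

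Within the other classes the spread was smaller or rested on a single low gene. The 6 ATPases differed least, by 2.55 times in WT between Psmc1 (69.04 ± 6.13 CPM per kb) and Psmc3 (27.1 ± 3.31 CPM per kb). Alpha-ring genes spanned 5.90 times in WT, with Psma4 highest at 78.1 ± 17.3 CPM per kb and Psma3 lowest at 13.2 ± 1.63 CPM per kb. This place of Psma3 rests on the length used, 2.85 kb against 1.24 kb for Psma1 and Psma5. In CPM its WT mean of 37.7 stood above those of Psma1 (31.3) and Psma5 (32.7). Of the 100-base stretches of Psma3, 20.6% also occur in Gm13835. In the lid, Psmd13 was the lowest Psmd gene at 4.26 ± 0.221 CPM per kb in WT. It overlaps Sirt3 on the opposite strand over 17.2% of its exon length, and without the strand setting reads of that part cannot be told apart. Psmg4 and Psmg3, assembly partners of each other, stood at 19.8 ± 2.48 and 3.86 ± 0.982 CPM per kb in WT.

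The genes at the ends of each class kept their places in most groups. Psmb6 had 96.8, 95.6 and 98.2 CPM in Mfn1-/- pools, 115.1, 100.9 and 122.2 CPM in Mfn2-/- pools and 113.4, 118.8 and 111.8 CPM in Mfn1&2-/- pools, against 113.7, 106.4 and 85.7 CPM in WT pools. Psmd4 had 282.3, 354.7 and 343.3 CPM in Mfn1-/- pools, 277.8, 225.5 and 258.4 CPM in Mfn2-/- pools and 376.5, 340.2 and 316.03 CPM in Mfn1&2-/- pools, against 276.1, 338.8 and 363.6 CPM in WT pools. Psmd13 had 12.3, 8.46 and 8.33 CPM in Mfn1-/- pools, 12.9, 13.6 and 8.37 CPM in Mfn2-/- pools and 3.87, 10.3 and 9.01 CPM in Mfn1&2-/- pools, against 8.07, 8.94 and 8.43 CPM in WT pools. Psmb6 and Psmd4 were the highest of their class in all 4 groups, and Psmb11 and Psmd13 the lowest. Psma3 had 39.4, 43.6 and 39.2 CPM in Mfn1-/- pools, 49.8, 34.96 and 49.7 CPM in Mfn2-/- pools and 45.96, 43.4 and 39.4 CPM in Mfn1&2-/- pools, against 37.2, 42.5 and 33.2 CPM in WT pools. Psmc3 had 54.1, 55.1 and 59.2 CPM in Mfn1-/- pools, 70.2, 54.3 and 56.2 CPM in Mfn2-/- pools and 61.9, 57.99 and 51.6 CPM in Mfn1&2-/- pools, against 56.8, 61.2 and 47.9 CPM in WT pools. Neither Psma3, Psmc3, Psmb6 nor Psmd13 was called in any comparison, and their knockout groups all overlapped WT.

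**Figure D1:**
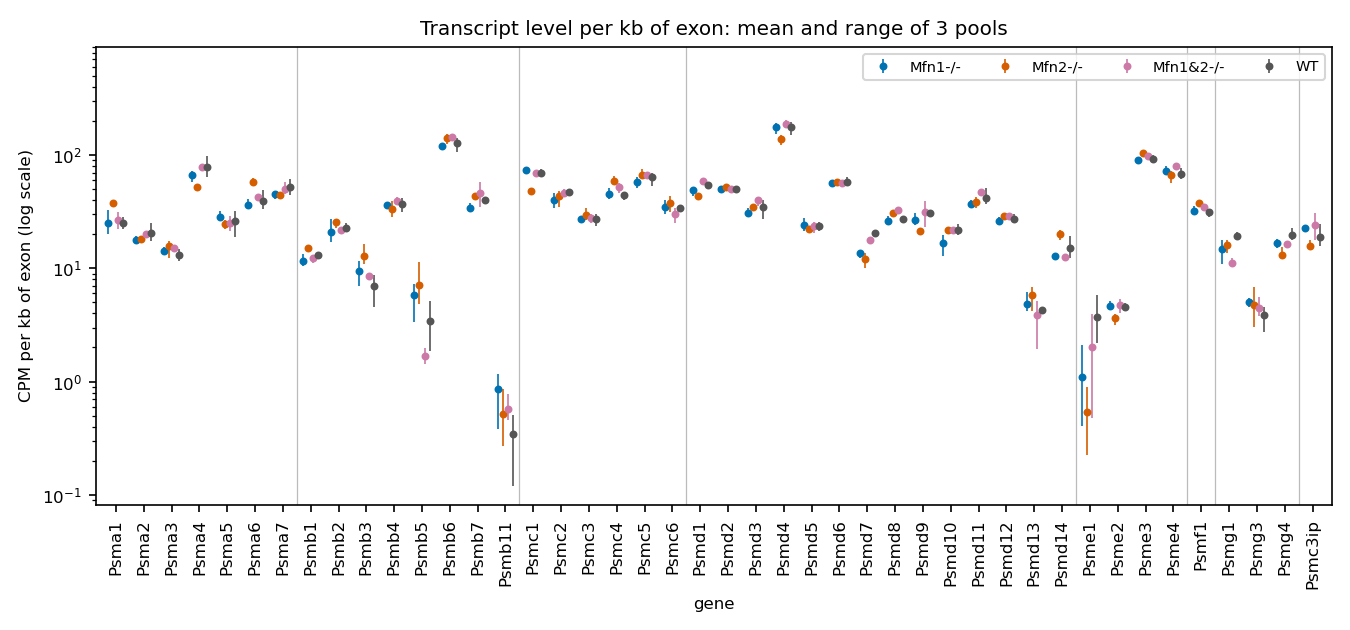
Level of each proteasome gene in CPM per kb of exon on a log axis, by class, with points for the mean and bars for the range of 3 pools in Mfn1-/-, Mfn2-/-, Mfn1&2-/- and WT oocytes. Psmd4 and Psmb6 stand above 100 CPM per kb in WT, and Psmb5, Psmb11 and Psme1 are among the 7 genes below 10.

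Neighbours in this order could lie within each other's spread, as Psmc1 and the activator Psme4 did in WT at 69.04 ± 6.13 and 68.4 ± 7.80 CPM per kb, and the lowest genes were the least precise. The coefficient of variation within groups, averaged over the 4 groups, was below 20% for 38 of the 44 genes and 10.7% at the median gene. Psmd2, a scaffold of the base, varied least, by 3.06%. Psme1 varied most, by 70.6%, on a mean of 25.7 counts a library. Psmb11 had a mean of 32.4 counts and Psmb5 of 53.2 counts.

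Psmb11 is known as the thymus-specific beta subunit that replaces Psmb5 in cortical thymic epithelium. It was the lowest member in WT, at 0.347 ± 0.203 CPM per kb. Its values were 4.96, 1.63 and 4.33 CPM in Mfn1-/- pools, 3.66, 1.74 and 1.14 CPM in Mfn2-/- pools and 1.94, 2.04 and 3.33 CPM in Mfn1&2-/- pools, against 2.16, 0.506 and 1.75 CPM in WT pools. The 4 groups overlapped, and no comparison called it. The gene lies next to Psmb5 at chr14:54621433-54629556, with Psmb5 at chr14:54614119-54618022 (mm10).

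Summed over a class, proteasome mRNA stood within 20% of the WT mean in each knockout, except for the assembly genes in Mfn2-/- and Mfn1&2-/- pools. As a share of the WT mean of summed CPM per kb, alpha-ring genes stood at 91.9% in Mfn1-/-, 98.5% in Mfn2-/- and 101.3% in Mfn1&2-/- pools. Beta-ring genes stood at 95.6%, 111.0% and 109.1% in the same order of groups, and ATPases at 97.5%, 99.6% and 102.4%. The 3 assembly genes stood at 85.2% in Mfn1-/-, 78.8% in Mfn2-/- and 73.8% in Mfn1&2-/- pools.

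The 14 Psmd genes, base chaperones included, summed to 504.1 to 546.7 CPM per kb in Mfn2-/- pools, against 566.8 to 600.9 CPM per kb in WT pools, and the groups did not overlap. Those of Mfn1&2-/- pools summed to 598.6 to 617.7 CPM per kb, and those of Mfn1-/- pools to 533.3 to 563.3 CPM per kb, which did not overlap WT either. Psmd4 alone made up 63.9% of the difference in the mean sum of Mfn2-/- pools from WT pools, and of the 14 genes 6 had a positive and 8 a negative log2 fold change there. In Mfn1-/- pools Psmd4 stood near WT, at means of 177.8 and 177.5 CPM per kb. Of the 14 genes, 3 had a positive and 11 a negative log2 fold change in Mfn1-/- against WT. The inhibitor Psmf1 stood at 119.5% of WT in Mfn2-/- pools. It was not called there (log2 fold change 0.26 ± 0.10, adjusted p = 0.11 by edgeR). These sums are descriptions without a test, and CPM are shares of a library: RNA per oocyte was not measured, so fewer transcripts per oocyte and more RNA of other genes cannot be told apart.

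**Figure D2:**
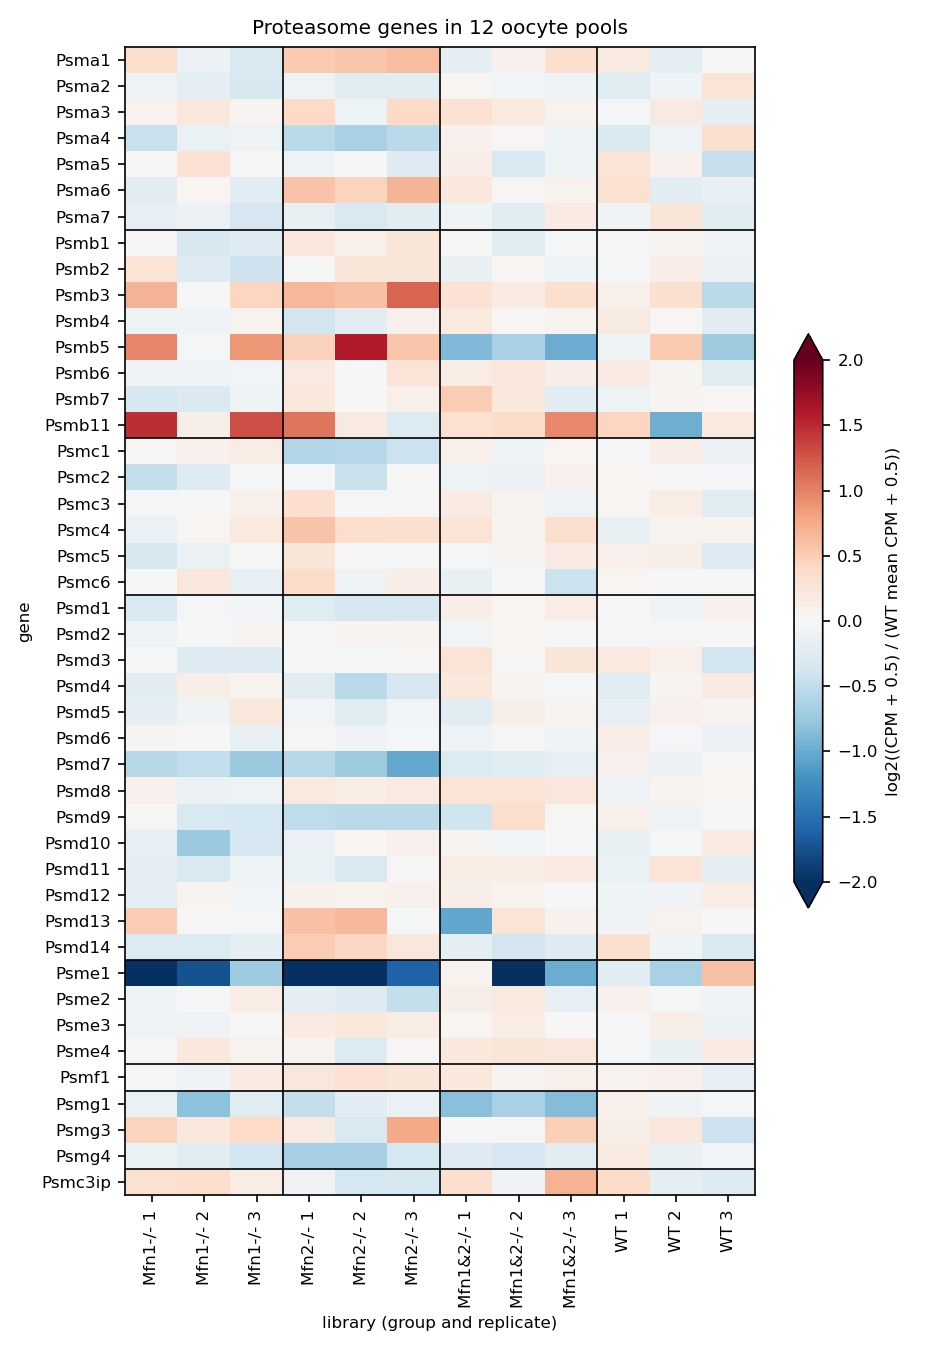
Each library's log2 ratio of CPM + 0.5 to the WT mean + 0.5, with genes in rows by class and the 12 pools in columns, Mfn1-/-, Mfn2-/-, Mfn1&2-/- and WT from left to right. Psme1 is low (blue) in all 3 Mfn2-/- pools and all 3 Mfn1-/- pools. Psmb5 is low in all 3 Mfn1&2-/- pools, while most rows stay near white.

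In Mfn2-/- against WT, 7 proteasome genes were called, the most of the comparisons with WT. The same order held over all 11385 genes, with 1297 called in Mfn2-/-, 479 in Mfn1&2-/- and 26 in Mfn1-/- against WT. Psma6, of the alpha ring, and the ATPase Psmc4 rose. Psma4, also of the alpha ring, the ATPase Psmc1, the lid subunit Psmd7, the base chaperone Psmd9 and the activator Psme1 fell. The 7 of 44 make 15.9%, where 11.4% of all genes tested were called in this comparison, 4.52% higher and 6.87% lower. The median log2 fold change of the 44 was 0.02, beside 0.01 over all genes. Between Mfn2-/- and WT pools 17 of the 44 did not overlap (8 higher, 9 lower), beside 32% of all genes.

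Psmc1, an ATPase whose tail docks into the alpha ring and helps open its gate, lies at chr12:100110154-100123405 (mm10). It had 72.7, 73.6 and 81.8 CPM in Mfn2-/- pools, against 108.3, 120.3 and 100.97 CPM in WT pools. Every Mfn2-/- pool lay below every WT pool. The log2 fold change was -0.53 ± 0.10 (adjusted p = 0.0045 by edgeR), which put Mfn2-/- at 69.2% of the WT mean. Psmc4, the ATPase that rose, had 94.9, 81.9 and 80.4 CPM in Mfn2-/- pools, against 57.98, 66.6 and 67.6 CPM in WT pools, again without overlap (log2 fold change 0.42 ± 0.13, adjusted p = 0.0443 by edgeR). The Psmc1 call held in all 20 alternatives, while that of Psmc4 was lost without Mfn1-/- replicate 2, Mfn2-/- replicate 1, 2 or 3 or WT replicate 1, 2 or 3 (adjusted p = 0.055 to 0.157 by edgeR) and with the replicate block or only the groups compared (adjusted p = 0.052 to 0.0635).

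Psmd7, a lid scaffold that pairs with the deubiquitinase Psmd14, lies at chr8:107580381-107588464 (mm10). It had 21.8, 19.8 and 15.9 CPM in Mfn2-/- pools, against 34.5, 30.1 and 33.3 CPM in WT pools. All 3 Mfn2-/- values lay below the WT values. It stood at 58.6% of the WT mean (log2 fold change -0.77 ± 0.16, adjusted p = 0.00729 by edgeR), and this call too held in all 20 alternatives. Psmd14 had 33.5, 31.5 and 27.6 CPM in Mfn2-/- pools and 29.5, 21.9 and 18.9 CPM in WT pools, but the groups overlapped and it was not called (adjusted p = 0.176 by edgeR). Psmd9, a chaperone of base assembly that is released before the finished complex forms, had 55.7, 54.6 and 54.5 CPM in Mfn2-/- pools, against 84.8, 75.2 and 78.001 CPM in WT pools. The Mfn2-/- pools lay close together and all lay below WT (log2 fold change -0.53 ± 0.16, adjusted p = 0.0455 by edgeR). Its call was lost without Mfn1-/- replicate 2 or 3, Mfn2-/- replicate 1, 2 or 3, Mfn1&2-/- replicate 3 or WT replicate 1, 2 or 3 (adjusted p = 0.0519 to 0.114 by edgeR) and with library size alone, limma-voom or the replicate block (adjusted p = 0.0508 to 0.0816).

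In the alpha ring, 1 called gene fell and 1 rose. Psma4, whose tail helps to close the gate, had 62.6, 57.8 and 62.7 CPM in Mfn2-/- pools, against 74.5, 84.9 and 113.4 CPM in WT pools. The groups did not overlap, but WT replicate 3 stood well above the other WT pools (log2 fold change -0.58 ± 0.15, adjusted p = 0.0195 by edgeR). Psma6 had 66.9, 61.4 and 72.5 CPM in Mfn2-/- pools, against 56.1, 38.5 and 40.8 CPM in WT pools, with every Mfn2-/- pool higher (log2 fold change 0.57 ± 0.15, adjusted p = 0.0263 by edgeR). Exons of Psma4 overlap AY074887 on the opposite strand by 114 bases, and 9.2% of its 100-base stretches also occur in other genes, against 3.8% for Psmc1 and 0% for Psmd7. The Psma4 call was lost without Mfn2-/- replicate 2 or WT replicate 3 (adjusted p = 0.0745 to 0.099 by edgeR), and that of Psma6 was lost without Mfn2-/- replicate 1 or 3 or WT replicate 2 or 3 (adjusted p = 0.0637 to 0.108 by edgeR). The 5 other alpha-ring genes were not called: Psma1, with a log2 fold change of 0.57 ± 0.19, came nearest (adjusted p = 0.0597 by edgeR). None of the 8 beta-ring genes passed the test. Of them 7 had a positive log2 fold change, where 5863 of all 11385 genes did, and their median was 0.18. Between Mfn2-/- and WT pools 2 of the 8 did not overlap, beside 32% of all genes.

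Psme1 and Psme2 encode the activator that interferon induces and that is best known from antigen presentation. Psme1 had 8, 3 and 15 counts (0.533, 0.249 and 1.004 CPM) in Mfn2-/- pools, against 44, 29 and 77 counts (3.51, 2.45 and 6.43 CPM) in WT pools. All Mfn2-/- pools were lower (log2 fold change -2.76 ± 0.83, adjusted p = 0.0422 by edgeR). WT replicate 3, the library high in granulosa markers, was also highest in Psme1. The call was lost without Mfn1-/- replicate 2, Mfn2-/- replicate 1, 2 or 3, Mfn1&2-/- replicate 3 or WT replicate 1, 2 or 3 (adjusted p = 0.0507 to 0.148 by edgeR) and with limma-voom (adjusted p = 0.0646). Granulosa markers summed to 441.6 to 542.2 CPM in Mfn2-/- pools, against 515.3 to 893.3 CPM in WT pools, and 4 of the 11 measured were called lower, where 6.87% of all genes were. The other knockouts were low in granulosa markers too, at 499.0 to 513.8 CPM in Mfn1-/- and 489.5 to 514.2 CPM in Mfn1&2-/- pools. The median log2 fold change of the 11 against WT was -0.83 in Mfn1-/-, -0.33 in Mfn2-/- and -1.74 in Mfn1&2-/-. Fshr and Fst, receptor and secreted markers of these cells, were at 0 in 2 and 1 of the 12 libraries. Of the interferon and antigen presentation list 6 of 11 genes were measured, summing to 172.7 to 185.7 CPM in Mfn2-/- pools and 182.8 to 198.4 CPM in WT pools. Its called genes were H2-K1, at 18.98, 16.9 and 15.9 CPM in Mfn2-/- pools and 8.15, 8.52 and 2.004 CPM in WT pools, and Tap2, at 4.19, 3.99 and 2.61 CPM in Mfn2-/- pools and 8.70, 13.9 and 20.5 CPM in WT pools, so the pair moved in opposite directions. The part of either cell or signal in the Psme1 result was not tested.

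The activators that other tissues use in the nucleus and in germ cells were far more abundant. Psme3, a nuclear activator, had 230.6, 236.7 and 249.4 CPM in Mfn1-/- pools, 276.7, 288.4 and 273.97 CPM in Mfn2-/- pools and 255.2, 275.5 and 246.7 CPM in Mfn1&2-/- pools, against 246.5, 269.5 and 227.7 CPM in WT pools. Psme4, known from histone turnover in spermatogenesis, had 432.8, 515.2 and 464.4 CPM in Mfn1-/- pools, 466.2, 369.1 and 450.9 CPM in Mfn2-/- pools and 512.1, 523.8 and 519.6 CPM in Mfn1&2-/- pools, against 431.2, 401.4 and 500.1 CPM in WT pools. Both were high in all 12 pools. Per kb the mean WT level of Psme3 was 25.1 times that of Psme1 and 20.3 times that of Psme2. Psme2 had 4.21, 4.39 and 4.997 CPM in Mfn1-/- pools, 3.86, 3.65 and 3.08 CPM in Mfn2-/- pools and 4.88, 5.19 and 3.94 CPM in Mfn1&2-/- pools, against 4.79, 4.39 and 4.26 CPM in WT pools, and 44.5% of its 100-base stretches also occur in Psme2b. Neither Psme2, Psme3 nor Psme4 was called in any comparison.

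The 12 oocyte markers summed to 13457 to 14346 CPM in Mfn2-/- pools, against 9866 to 12324 CPM in WT pools, and 4 of the 12 were called higher, where 4.52% of all genes were. Of the 12, 10 had a positive and 2 a negative log2 fold change. The part of this difference in the results for proteasome genes was not tested. With a single library left out, 2 of the 7 calls were kept if it was WT replicate 3, 4 if it was Mfn1-/- replicate 2 or WT replicate 1, and 3 if it was WT replicate 2 or any of the 3 Mfn2-/- replicates. Without Mfn1-/- replicate 1, Psma1, Psmd1 and Psmd4 were called as well, as they were by DESeq2.

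**Figure D3:**
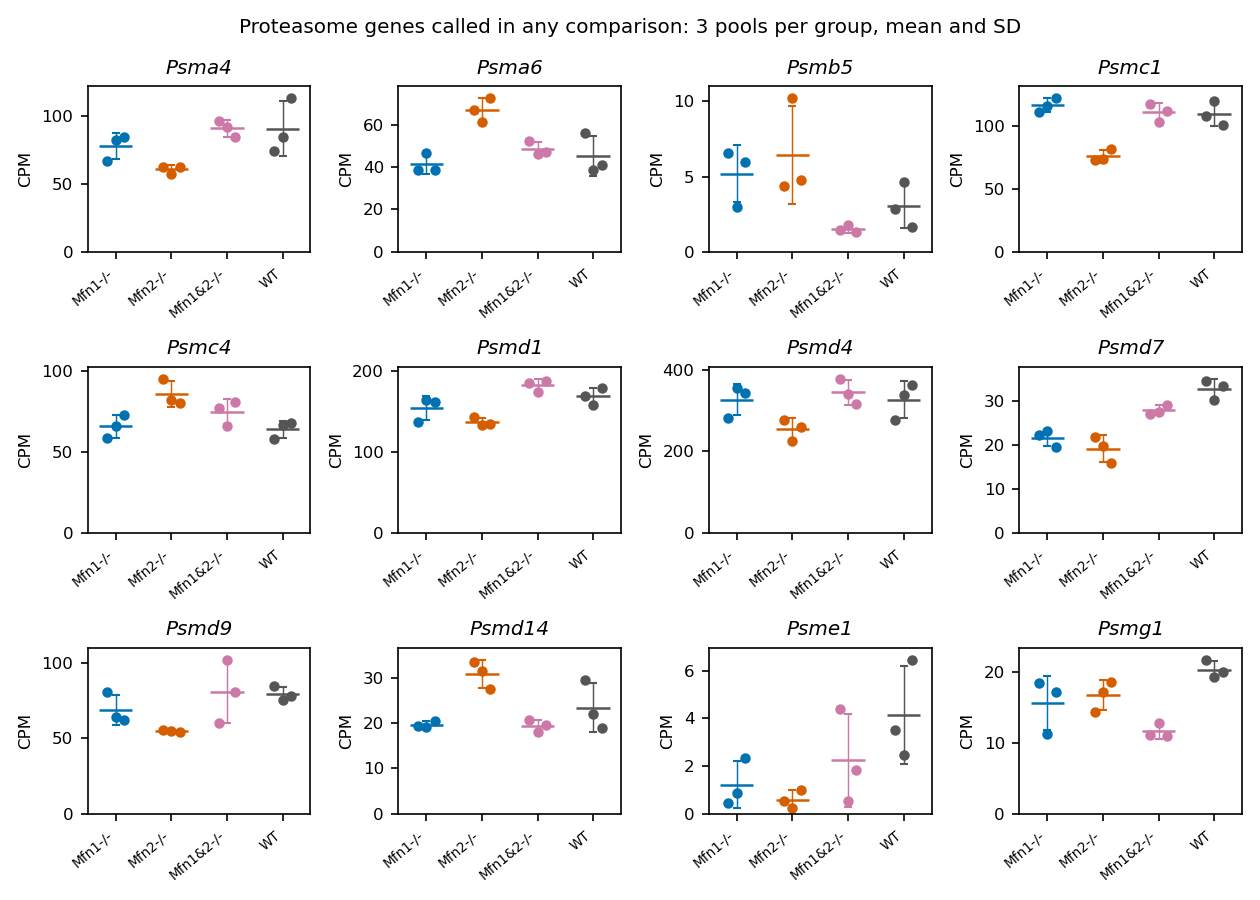
CPM in each of the 12 pools for the 12 proteasome genes called in any comparison, with the mean as a line and the SD as a bar, groups from left to right Mfn1-/-, Mfn2-/-, Mfn1&2-/- and WT. Psmc1 at 72.7, 73.6 and 81.8 CPM and Psmd7 at 21.8, 19.8 and 15.9 CPM are lower in all Mfn2-/- pools than in all WT pools, and Psmb5 has its lowest mean in the Mfn1&2-/- pools.

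The 300 bases around the transcription start of 4 called genes are shown because Psmc1, Psma4 and Psmd9 fell together in Mfn2-/- oocytes and Psmb5 went the other way between the double and the single knockout. The sequences run from 250 bases before to 50 bases after the start and are from RefSeq (GRCm38.p6). Capitals mark TGACNNNGC, the core letters of the antioxidant response element through which NRF factors are known to raise proteasome genes, searched on both strands. The windows are chr12:100109952-100110251, plus strand, for Psmc1, chr9:54950609-54950908, plus strand, for Psma4, chr5:123227940-123228239, plus strand, for Psmd9, and chr14:54617946-54618245, minus strand, for Psmb5.
Psmc1: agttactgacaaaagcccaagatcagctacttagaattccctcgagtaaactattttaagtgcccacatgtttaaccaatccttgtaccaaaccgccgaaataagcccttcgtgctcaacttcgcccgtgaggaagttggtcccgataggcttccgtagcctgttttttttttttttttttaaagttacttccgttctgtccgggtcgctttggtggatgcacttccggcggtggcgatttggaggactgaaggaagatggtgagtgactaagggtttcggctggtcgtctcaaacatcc
Psma4: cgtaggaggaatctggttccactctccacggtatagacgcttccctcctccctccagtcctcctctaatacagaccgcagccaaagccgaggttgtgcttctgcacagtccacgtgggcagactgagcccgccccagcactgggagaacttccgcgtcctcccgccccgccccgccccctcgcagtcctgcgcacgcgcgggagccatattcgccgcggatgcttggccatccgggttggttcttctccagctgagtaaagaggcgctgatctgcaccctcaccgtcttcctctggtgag
Psmd9: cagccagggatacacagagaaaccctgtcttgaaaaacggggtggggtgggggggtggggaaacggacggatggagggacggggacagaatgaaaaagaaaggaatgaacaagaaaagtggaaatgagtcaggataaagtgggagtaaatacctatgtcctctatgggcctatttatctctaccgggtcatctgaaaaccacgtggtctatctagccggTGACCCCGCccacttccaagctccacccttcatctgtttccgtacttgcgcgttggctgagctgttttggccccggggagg
Psmb5: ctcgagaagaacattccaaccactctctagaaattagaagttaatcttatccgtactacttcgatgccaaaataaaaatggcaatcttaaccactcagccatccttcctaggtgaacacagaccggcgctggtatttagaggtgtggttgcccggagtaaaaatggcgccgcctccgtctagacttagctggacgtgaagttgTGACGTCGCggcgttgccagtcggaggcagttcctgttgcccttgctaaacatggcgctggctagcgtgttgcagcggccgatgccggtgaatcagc
The letters were found in the windows of Psmd9 (TGACCCCGC) and Psmb5 (TGACGTCGC), and in neither that of Psmc1 nor that of Psma4. Over the 38 proteasome genes with a window, 6 (15.8%) held them: Psmb5, Psmb6, Psmc6, Psmd9, Psmd12 and Psme4. Over all 27025 genes with a window, 14.0% did. Psmd7 was not in the table. A match is a run of letters and no measured binding.

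Loss of Mfn1 alone changed no proteasome gene by edgeR. Of the 44, 0 were called, where 0.228% of all genes tested were called. At an unadjusted p below 0.05, 3 were lower, Psmd7, Psmd10 and Psme1, beside 12.8% of all genes in either direction. limma-voom called 0 and the DESeq2 Wald test called 1, Psmd7. The median log2 fold change of the 44 was -0.05, beside -0.01 over all genes, and 40 of the 44 lay within 0.5 of 0. Between Mfn1-/- and WT pools 5 did not overlap, all lower, beside 18.1% of all genes, 8.84% lower.

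Psmd7 had 22.2, 23.1 and 19.4 CPM in Mfn1-/- pools, against 34.5, 30.1 and 33.3 CPM in WT pools. All 3 Mfn1-/- pools were below WT, as the Mfn2-/- pools were against the same WT libraries (log2 fold change -0.60 ± 0.16, adjusted p = 0.135 by edgeR and 0.0455 by DESeq2). Psmd10, the oncoprotein gankyrin and a chaperone of base assembly, had 28.7, 18.997 and 25.4 CPM in Mfn1-/- pools and 28.8, 31.5 and 36.1 CPM in WT pools (adjusted p = 0.332 by edgeR). Psmc1, by contrast, had 111.1, 116.4 and 122.2 CPM in Mfn1-/- pools, overlapping the WT pools at 108.3, 120.3 and 100.97 CPM.

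Loss of both mitofusins changed 1 proteasome gene against WT, the assembly gene Psmg1, which fell. That is 2.27% of the 44, where 4.21% of all genes tested were called, 2.11% lower. The median log2 fold change of the 44 was 0.05, beside 0.00 over all genes. Between Mfn1&2-/- and WT pools 5 of the 44 did not overlap (2 higher, 3 lower), beside 22.1% of all genes. None of the 7 genes called in Mfn2-/- against WT was called here. The difference between the knockouts is tested in the comparisons that follow.

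Psmg1, a member of the chaperone pair that templates the alpha ring, had 11.1, 12.8 and 10.9 CPM in Mfn1&2-/- pools, against 21.6, 19.2 and 20.04 CPM in WT pools. The groups did not overlap (log2 fold change -0.81 ± 0.21, adjusted p = 0.0444 by edgeR). In the single knockouts it had 18.4, 11.3 and 17.2 CPM in Mfn1-/- pools and 14.4, 17.2 and 18.5 CPM in Mfn2-/- pools, and these values too were below all WT pools without being called. The call in Mfn1&2-/- was lost without Mfn1-/- replicate 3, Mfn2-/- replicate 2 or 3, Mfn1&2-/- replicate 1, 2 or 3 or WT replicate 1, 2 or 3 (adjusted p = 0.0557 to 0.135 by edgeR) and with library size alone, limma-voom, the replicate block or only the groups compared (adjusted p = 0.0535 to 0.0722). The other assembly genes were not called: Psmg3 had 3.37, 3.48 and 4.92 CPM in Mfn1&2-/- pools and 3.75, 4.05 and 2.42 CPM in WT pools, and Psmg4 had 9.09, 8.61 and 9.39 CPM in Mfn1&2-/- pools and 12.5, 9.87 and 10.6 CPM in WT pools.

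Between Mfn1&2-/- and Mfn2-/- oocytes, 8 proteasome genes differed. Psma4, Psmc1, Psmd1, Psmd4, Psmd7 and Psmd9 were higher in Mfn1&2-/-, and Psmb5 and Psmd14 were lower. The 8 of 44 make 18.2%, where 10.2% of all genes tested were called, 6.14% higher and 4.08% lower. Of them 4 (Psma4, Psmc1, Psmd7 and Psmd9) were also among the 5 that fell in Mfn2-/- against WT. Both comparisons use the same Mfn2-/- pools, so a low value there moves both, and their values are given side by side without a test of overlap. Between Mfn1&2-/- and Mfn2-/- pools 21 of the 44 did not overlap, beside 31.5% of all genes.

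Psmc1 had 117.5, 103.5 and 112.4 CPM in Mfn1&2-/- pools, against 72.7, 73.6 and 81.8 CPM in Mfn2-/- pools, with no overlap (log2 fold change 0.55 ± 0.10, adjusted p = 0.00418 by edgeR). It was the only call of this comparison that held in all 20 alternatives. Psma4 had 96.8, 92.2 and 84.6 CPM in Mfn1&2-/- pools, against 62.6, 57.8 and 62.7 CPM in Mfn2-/- pools (log2 fold change 0.58 ± 0.15, adjusted p = 0.0204 by edgeR). The double-knockout pools of both genes lay among the WT values. The Psma4 call was lost without Mfn2-/- replicate 2 or 3 or Mfn1&2-/- replicate 1 or 2 (adjusted p = 0.0535 to 0.079 by edgeR).

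Among base and lid genes, Psmd4 had 376.5, 340.2 and 316.03 CPM in Mfn1&2-/- pools, against 277.8, 225.5 and 258.4 CPM in Mfn2-/- pools (log2 fold change 0.44 ± 0.12, adjusted p = 0.0307 by edgeR). Psmd1, the large scaffold of the base, had 184.7, 173.5 and 187.9 CPM in Mfn1&2-/- pools, against 142.96, 132.9 and 134.5 CPM in Mfn2-/- pools (log2 fold change 0.41 ± 0.10, adjusted p = 0.0129 by edgeR). Neither pair of groups overlapped. The Psmd4 call was lost without Mfn2-/- replicate 2 or 3 or Mfn1&2-/- replicate 1 or 2 (adjusted p = 0.0704 to 0.127 by edgeR) and with the replicate block (adjusted p = 0.0513), and that of Psmd1 was lost without Mfn2-/- replicate 2 or 3 (adjusted p = 0.0526 to 0.0558 by edgeR).

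For Psmd7 the Mfn1&2-/- pools, at 26.9, 27.5 and 29.1 CPM, lay between the Mfn2-/- pools, at 21.8, 19.8 and 15.9 CPM, and the WT pools (log2 fold change against Mfn2-/- 0.54 ± 0.16, adjusted p = 0.0459 by edgeR). The call was lost without Mfn1-/- replicate 1, 2 or 3, Mfn2-/- replicate 2 or 3, Mfn1&2-/- replicate 1, 2 or 3 or WT replicate 1 or 2 (adjusted p = 0.0518 to 0.183 by edgeR) and with library size alone, the replicate block or only the groups compared (adjusted p = 0.064 to 0.0828). Psmd9 was more scattered in the double knockout, with 60.2, 101.8 and 80.5 CPM in Mfn1&2-/- pools, against 55.7, 54.6 and 54.5 CPM in Mfn2-/- pools (log2 fold change 0.56 ± 0.16, adjusted p = 0.0391 by edgeR), and its call was lost without Mfn2-/- replicate 1, 2 or 3, Mfn1&2-/- replicate 2 or 3 or WT replicate 2 (adjusted p = 0.05 to 0.191 by edgeR) and with library size alone, the replicate block or only the groups compared (adjusted p = 0.0629 to 0.0701). Psmd14, the deubiquitinase of the lid, had 20.7, 18.01 and 19.5 CPM in Mfn1&2-/- pools, against 33.5, 31.5 and 27.6 CPM in Mfn2-/- pools (log2 fold change -0.67 ± 0.18, adjusted p = 0.0288 by edgeR), and its call was lost without Mfn2-/- replicate 1, 2 or 3 or Mfn1&2-/- replicate 2 or 3 (adjusted p = 0.051 to 0.097 by edgeR). All Psmd14 values of the double knockout lay below those of Mfn2-/-.

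With a single library left out, 1 of the 8 calls was kept if it was Mfn2-/- replicate 2 and 2 if it was Mfn2-/- replicate 3. If it was Mfn1&2-/- replicate 1, 2 or 3, the number kept was 5, 3 and 4, in that order, and without Mfn1&2-/- replicate 2 Psmc3ip was called too. With library size alone in place of TMM, 4 higher and 3 lower genes were called, Psma6 now among the lower ones, against 6 higher and 2 lower with TMM. Psma6 was also called lower by DESeq2 (adjusted p = 0.0354) and limma-voom (adjusted p = 0.0422). By edgeR it was called with only the groups compared (adjusted p = 0.0371) and without WT replicate 1 (adjusted p = 0.0357).

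Psmb5 was the only proteasome gene that differed between Mfn1&2-/- and Mfn1-/- oocytes, 2.27% of the 44, where 5.36% of all genes tested were called, 2.6% lower. It encodes the subunit with the chymotrypsin-like site, which the proteasome inhibitor bortezomib blocks. It had 1.43, 1.78 and 1.29 CPM in Mfn1&2-/- pools, against 6.54, 3.01 and 5.996 CPM in Mfn1-/- pools (log2 fold change -1.78 ± 0.50, adjusted p = 0.0487 by edgeR). Every double-knockout pool was lower. Against Mfn2-/- pools, at 4.39, 10.2 and 4.75 CPM, the log2 fold change was -2.09 ± 0.50 (adjusted p = 0.0154 by edgeR). WT pools had 2.88, 4.64 and 1.67 CPM and overlapped all 3 knockout groups (adjusted p = 0.287 by edgeR for Mfn1&2-/- against WT).

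In counts, Psmb5 had 17, 27 and 17 in Mfn1&2-/- pools, 87, 48 and 72 in Mfn1-/- pools, 66, 123 and 71 in Mfn2-/- pools and 36, 55 and 20 in WT pools, so its folds rest on few reads. The call against Mfn1-/- was lost without Mfn1-/- replicate 1 or 3, Mfn2-/- replicate 3, Mfn1&2-/- replicate 1, 2 or 3 or WT replicate 1 (adjusted p = 0.0565 to 0.16 by edgeR) and with limma-voom, the replicate block or only the groups compared (adjusted p = 0.0531 to 0.121). The call against Mfn2-/- was lost without Mfn2-/- replicate 2 or Mfn1&2-/- replicate 3 (adjusted p = 0.0529 to 0.0928 by edgeR). Of the 8 beta-ring genes, 3 (Psmb3, Psmb5 and Psmb11) had a negative and 5 a positive log2 fold change in this comparison. Psmb6 had 113.4, 118.8 and 111.8 CPM in Mfn1&2-/- pools and 96.8, 95.6 and 98.2 CPM in Mfn1-/- pools, and Psmb7, which was called without Mfn1&2-/- replicate 3, had 66.4, 53.9 and 40.04 CPM in Mfn1&2-/- pools and 37.2, 37.9 and 43.6 CPM in Mfn1-/- pools. Between Mfn1&2-/- and Mfn1-/- pools 10 of the 44 did not overlap (9 higher, 1 lower), beside 26% of all genes.

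Whether the change with loss of Mfn2 differed once Mfn1 was absent was tested as an interaction: the log2 difference of Mfn1&2-/- from Mfn1-/- minus that of Mfn2-/- from WT. Of the 44 genes, 4 passed (9.09%), where 4.13% of all genes tested were called, 2.92% with a positive and 1.2% with a negative term. Psma4, Psmd1 and Psmd7 had a positive term and Psmb5 a negative one. With library size alone the count was 1 positive and 1 negative.

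For Psmd7 the term was 1.14 ± 0.23 on the log2 scale (adjusted p = 0.0162 by edgeR), and it was called in every alternative. The log2 fold change for loss of Mfn2 was 0.37 with Mfn1 already lost and -0.77 with Mfn1 present, from 4 groups that share no library between these differences. For Psmb5 the term was -2.85 ± 0.69 (adjusted p = 0.0344 by edgeR), from -1.78 with Mfn1 lost and 1.07 with Mfn1 present. This call was lost without Mfn1-/- replicate 1 or 3, Mfn2-/- replicate 2, Mfn1&2-/- replicate 1, 2 or 3 or WT replicate 1 or 3 (adjusted p = 0.0526 to 0.109 by edgeR) and with limma-voom (adjusted p = 0.0663). Psmc1 had a term of 0.46 ± 0.15 and was not called by edgeR (adjusted p = 0.0844), but it was by DESeq2 (adjusted p = 0.0466). DESeq2 also called terms of Psmd9 (adjusted p = 0.0258) and Psme1 (adjusted p = 0.0241).

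For Psma4 the term was 0.80 ± 0.21 (adjusted p = 0.0428 by edgeR), from 0.23 with Mfn1 lost and -0.58 with Mfn1 present. It was lost without Mfn1-/- replicate 1, 2 or 3, Mfn2-/- replicate 1, 2 or 3, Mfn1&2-/- replicate 1, 2 or 3 or WT replicate 2 or 3 (adjusted p = 0.0506 to 0.114 by edgeR) and with library size alone or the replicate block (adjusted p = 0.0549 to 0.0589). For Psmd1 the term was 0.54 ± 0.13 (adjusted p = 0.0377 by edgeR), from 0.24 with Mfn1 lost and -0.30 with Mfn1 present. It was lost without Mfn1-/- replicate 1, Mfn2-/- replicate 2 or 3, Mfn1&2-/- replicate 1, 2 or 3 or WT replicate 1 or 3 (adjusted p = 0.0526 to 0.101 by edgeR) and with library size alone or the replicate block (adjusted p = 0.0569 to 0.0648). With a single library left out, 2 of the 4 terms were kept if it was Mfn1-/- replicate 3, Mfn2-/- replicate 3 or WT replicate 1. Only the term of Psmd7 was kept if it was WT replicate 3, Mfn2-/- replicate 2, Mfn1-/- replicate 1 or any of the 3 Mfn1&2-/- replicates, and without Mfn1&2-/- replicate 1 a term of Psmd9 was called too.

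**Figure D4:**
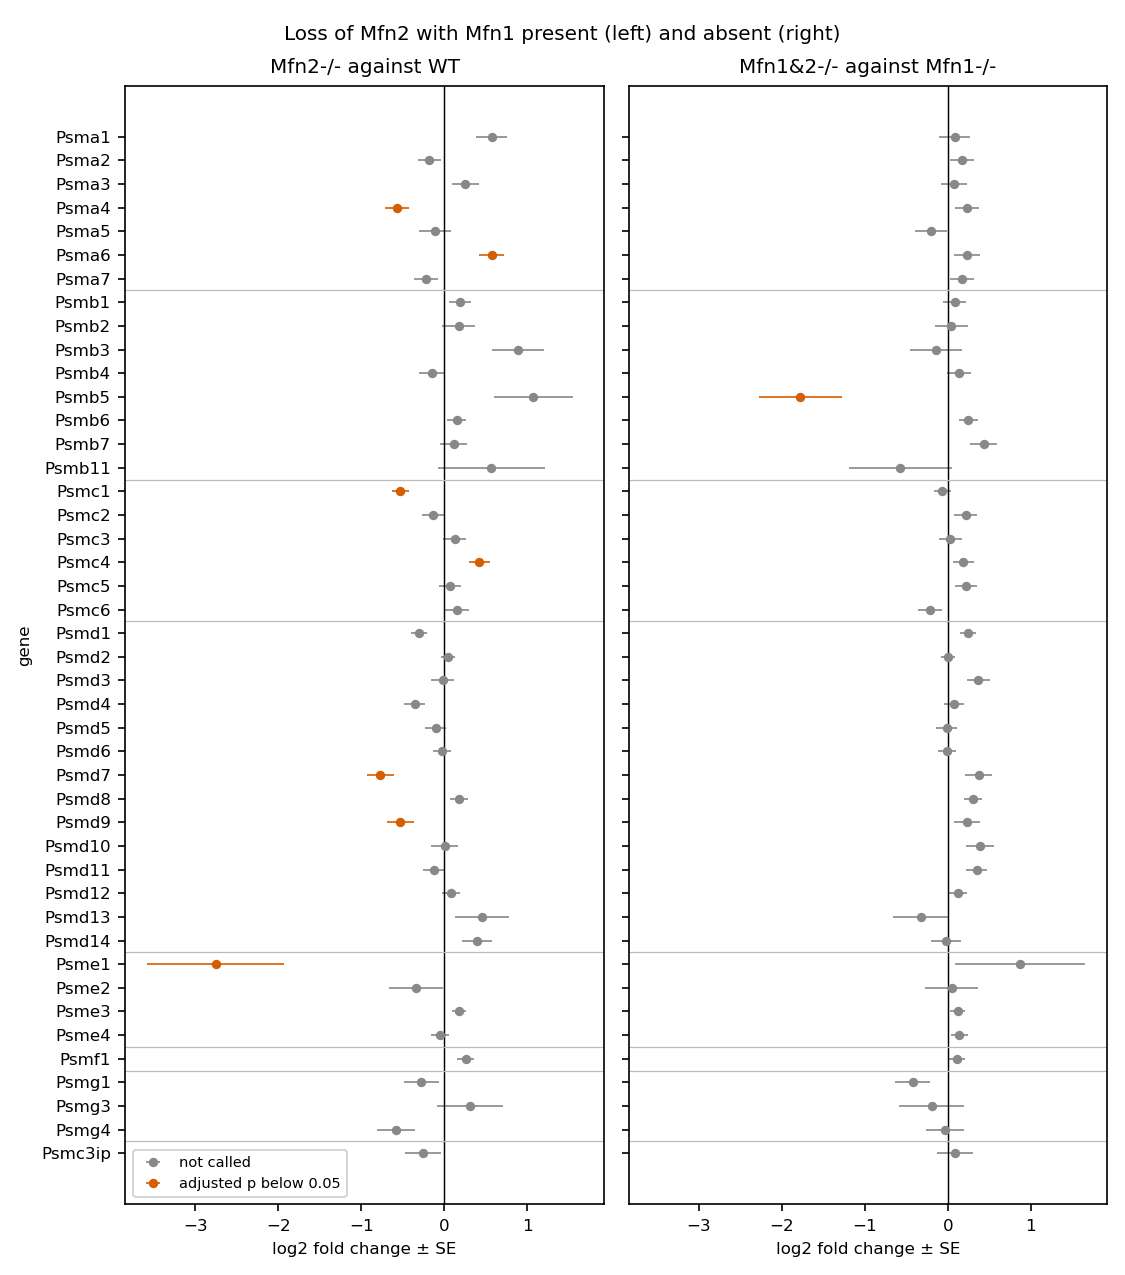
Log2 fold change with its standard error for each proteasome gene after loss of Mfn2, with Mfn1 present (left, Mfn2-/- against WT) and with Mfn1 absent (right, Mfn1&2-/- against Mfn1-/-), and called genes in orange. The left panel has 7 called genes and the right panel 1, Psmb5; Psmd7 lies at -0.77 on the left and 0.37 on the right.

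Psmc3ip, which works with DMC1 in the pairing of homologous chromosomes, is no proteasome subunit and was called in no comparison with all libraries. It had 30.1, 31.2 and 26.98 CPM in Mfn1-/- pools, 23.2, 19.02 and 18.9 CPM in Mfn2-/- pools and 30.98, 23.1 and 39.5 CPM in Mfn1&2-/- pools, against 31.6, 21.1 and 20.2 CPM in WT pools. Its exons overlap Mlx on the opposite strand over 29.8% of their length, and without the strand setting reads of that part cannot be told apart. Without it, 7 of 43 genes were called in Mfn2-/- against WT.

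Genes that supply ubiquitin, deliver substrates or regulate proteasome number were read from a list of 41 symbols, of which 35 were measured. Of the 35, 0 were called in Mfn1-/- against WT, with 2 at an unadjusted p below 0.05. In each of the other pairwise comparisons 4 of 35 (11.4%) were called. The share of all genes called was 11.4% in Mfn2-/- against WT, 4.21% in Mfn1&2-/- against WT, 5.36% in Mfn1&2-/- against Mfn1-/- and 10.2% in Mfn1&2-/- against Mfn2-/-. The partner genes called were 3 higher and 1 lower in Mfn2-/- against WT, and 1 higher and 3 lower in Mfn1&2-/- against WT.

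The polyubiquitin gene Ubb, which encodes ubiquitin as head-to-tail repeats, fell in Mfn2-/- oocytes against WT. Ubb had 32.5, 26.99 and 31.4 CPM in Mfn2-/- pools, against 44.7, 76.9 and 55.8 CPM in WT pools, with no overlap (log2 fold change -0.96 ± 0.20, adjusted p = 0.00678 by edgeR). In Mfn1&2-/- pools it had 63.8, 83.04 and 60.7 CPM, above all Mfn2-/- pools (log2 fold change against Mfn2-/- 1.19 ± 0.20, adjusted p = 0.00229 by edgeR). Both Ubb calls held in all 20 alternatives, and 52.4% of its 100-base stretches also occur in Gm1821 or Gm8797.

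The regulators of proteasome genes did not move as a group. Nfe2l1 encodes NRF1, the factor known to raise proteasome genes when proteasome activity falls. It had 394.7, 468.7 and 467.9 CPM in Mfn1-/- pools, 438.3, 407.1 and 454.9 CPM in Mfn2-/- pools and 527.7, 466.9 and 442.2 CPM in Mfn1&2-/- pools, against 487.2, 498.2 and 512.1 CPM in WT pools. Both single knockouts lay below all WT pools, but no comparison called the gene (adjusted p = 0.467 in Mfn1-/- and 0.177 in Mfn2-/- by edgeR). Ddi2, the protease that activates NRF1, had 288.6, 298.8 and 326.5 CPM in Mfn2-/- pools and 350.03, 325.9 and 310.3 CPM in Mfn1&2-/- pools, against 253.00, 222.9 and 205.9 CPM in WT pools. It rose in both (log2 fold change 0.42 ± 0.09, adjusted p = 0.00858 in Mfn2-/-, and 0.53 ± 0.09, adjusted p = 0.00359 in Mfn1&2-/-, by edgeR). Against Mfn1-/- pools at 212.7, 206.1 and 208.5 CPM it was higher in Mfn1&2-/- as well (adjusted p = 0.000592 by edgeR). The call in Mfn2-/- was lost without Mfn2-/- replicate 3 (adjusted p = 0.054 by edgeR); the others held in all 20 alternatives. Exons of Ddi2 share 1749 bases with Rsc1a1 on the same strand. Nfe2l2, which encodes NRF2 of the oxidative stress response, had 11.03, 11.8 and 9.16 CPM in Mfn1&2-/- pools, against 21.5, 20.6 and 22.05 CPM in WT pools, and fell (log2 fold change -1.003 ± 0.21, adjusted p = 0.012 by edgeR), a call lost without Mfn1&2-/- replicate 3 (adjusted p = 0.054 by edgeR).

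Ublcp1, a phosphatase of the nuclear proteasome, was lower in the double knockout than in either single knockout. It had 4.12, 4.21 and 7.57 CPM in Mfn1&2-/- pools, 64.4, 58.999 and 46.7 CPM in Mfn1-/- pools and 86.6, 57.6 and 48.6 CPM in Mfn2-/- pools. The log2 fold change was -3.42 ± 0.54 against Mfn1-/- (adjusted p = 0.00154 by edgeR) and -3.60 ± 0.55 against Mfn2-/- (adjusted p = 0.00105 by edgeR). WT pools were scattered, at 58.8, 27.2 and 6.26 CPM, and their lowest value fell within the range of the double knockout. Against WT the call (adjusted p = 0.0131 by edgeR) was lost without Mfn1&2-/- replicate 2 or WT replicate 1 (adjusted p = 0.0585 to 0.0621 by edgeR) and with limma-voom or only the groups compared (adjusted p = 0.0503 to 0.157). Of its 100-base stretches 24.1% also occur in Gm12663.

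Among the other factors that act on the proteasome, Fbxo7, a ubiquitin ligase subunit that binds the inhibitor Psmf1, had 30.2, 38.5 and 44.4 CPM in Mfn1&2-/- pools, against 22.6, 18.4 and 17.7 CPM in Mfn1-/- pools (log2 fold change 0.95 ± 0.19, adjusted p = 0.00829 by edgeR), without overlap. Akirin2, which carries proteasomes into the nucleus, had 527.1, 516.96 and 482.02 CPM in Mfn1&2-/- pools, against 412.6, 342.5 and 410.3 CPM in Mfn2-/- pools (log2 fold change 0.39 ± 0.09, adjusted p = 0.0145 by edgeR). Every double-knockout pool was higher, and the call was lost without Mfn2-/- replicate 2 or Mfn1&2-/- replicate 2 (adjusted p = 0.0505 to 0.0731 by edgeR). In Mfn2-/- against WT, Txnl1, a thioredoxin-like protein of the cap, had 46.7, 52.4 and 53.1 CPM in Mfn2-/- pools and 37.7, 28.3 and 40.5 CPM in WT pools (adjusted p = 0.0484 by edgeR). AI314180, the older symbol of the proteasome adaptor Ecpas, had 1334.3, 1302.6 and 1282.8 CPM in Mfn2-/- pools and 1130.8, 1108.8 and 1070.5 CPM in WT pools (adjusted p = 0.0373 by edgeR). The Txnl1 call was lost without Mfn1-/- replicate 2 or 3, Mfn2-/- replicate 1, 2 or 3, Mfn1&2-/- replicate 2 or WT replicate 1 or 2 (adjusted p = 0.0551 to 0.17 by edgeR) and with the replicate block or only the groups compared (adjusted p = 0.0666 to 0.07), and that of AI314180 was lost without Mfn1-/- replicate 3, Mfn2-/- replicate 1, 2 or 3, Mfn1&2-/- replicate 2 or WT replicate 1, 2 or 3 (adjusted p = 0.0522 to 0.115 by edgeR) and with the replicate block or only the groups compared (adjusted p = 0.0622 to 0.0739).

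Pomp, Adrm1, Usp14, Uchl5 and Vcp were called in no comparison. Pomp, the maturation factor of the core, had 35.3, 47.8 and 48.2 CPM in Mfn1-/- pools, 46.5, 44.2 and 42.6 CPM in Mfn2-/- pools and 45.5, 27.6 and 33.5 CPM in Mfn1&2-/- pools, against 39.9, 44.96 and 52.9 CPM in WT pools. Adrm1, another ubiquitin receptor of the base, ran from 105.1 to 138.9 CPM over the 12 pools. Log2 fold changes against WT of the deubiquitinase Usp14 were 0.26 in Mfn1-/-, 0.31 in Mfn2-/- and 0.36 in Mfn1&2-/-. Those of Uchl5, the deubiquitinase held by Adrm1, were -0.13, 0.02 and 0.002, and those of the unfoldase Vcp were 0.16, -0.09 and -0.07, in the same order of groups. Large shares of the 100-base stretches of Adrm1 (67.5%), Vcp (54.7%) and Usp14 (44.7%) also occur in other genes.

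**Figure D5:**
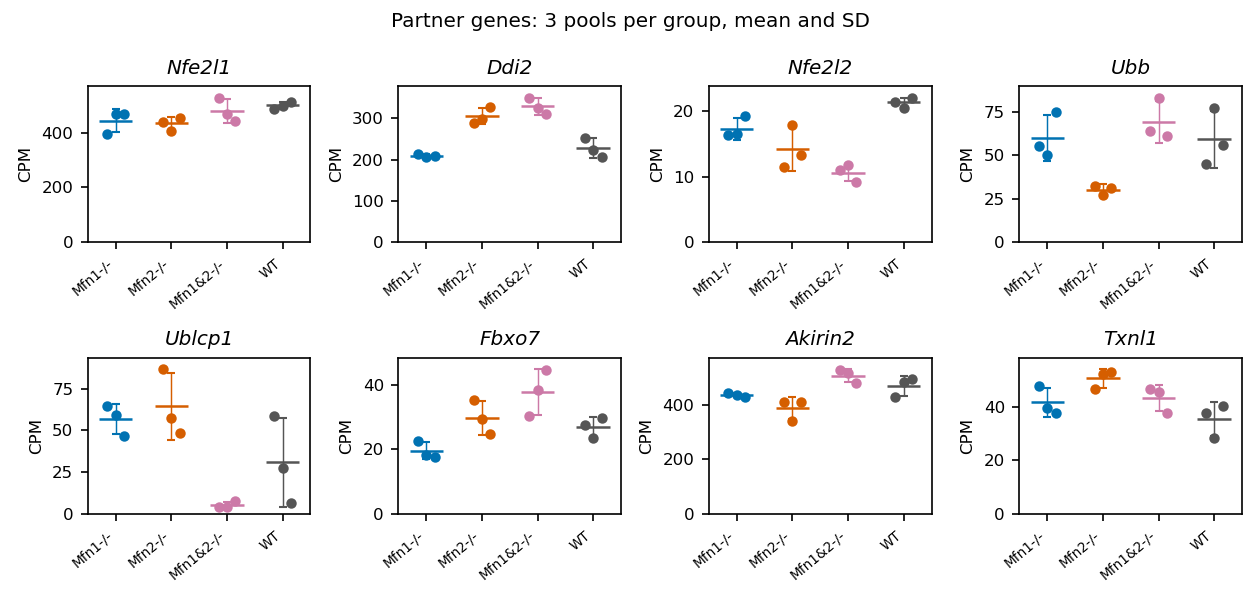
CPM in each of the 12 pools for 8 genes that act on the proteasome or supply ubiquitin, with mean and SD, groups from left to right Mfn1-/-, Mfn2-/-, Mfn1&2-/- and WT. Ubb is lowest in Mfn2-/- pools (32.5, 26.99 and 31.4 CPM), Ublcp1 has its lowest mean in Mfn1&2-/- pools, and Nfe2l1 was called in no comparison.

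Over the 6 comparisons, 12 of the 44 genes were called at least once and 32 never. Of the 21 calls of proteasome genes, 4 were kept in every alternative and 17 were lost in at least 1, and none changed sign. The 4 are Psmc1 and Psmd7 in Mfn2-/- against WT, Psmc1 in Mfn1&2-/- against Mfn2-/-, and the interaction term of Psmd7.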

How the data were processed

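Total RNA of 12 pools of 50 oocytes was extracted with a PicoPure kit, made into SMARTer stranded libraries and read as 100 bp pairs, per the labels' protocols. Tools in the submitters' processing notes are STAR 2.7.0a on mm10, FastQC 0.11.7 and edgeR. For the annotation, the counter and the strand setting, the sources used here give nothing. The authors deposited raw counts for 11385 genes, and a second table of signal values, which equalled TMM-scaled CPM of those counts within a relative 5.1e-15 and served only for that check. One pool labelled "Mn2-/-" was placed in Mfn2-/- by its description.

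Counts were fitted with edgeR 4.0.16 (R 4.3.3; TMM, quasi-likelihood, 1 mean per group, all 12 libraries, 8 residual degrees of freedom), and adjusted p below 0.05 was called, with BH over all genes. filterByExpr kept all genes, so all 44 proteasome genes were tested, and the alternative without a filter repeats the main fit. The standard error is the log2 fold change over the square root of F. Alternatives were RLE factors, library size alone, DESeq2 1.42.0, limma-voom 3.58.1, no filter, at least 5 CPM in 3 libraries (40 of the 44 genes pass), a block for the replicate number, a fit of only the groups compared, and each library left out. The fit was tested on simulated data. Within-group correlations of log CPM were 0.968 to 0.985, so no pool was counted as a duplicate of another.

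Exon lengths, positions, overlaps and shared 100-base stretches are from GENCODE vM21 (GRCm38, the assembly of mm10), where all 44 genes were located. Named genes are every called member or partner, class extremes by WT level, inducible subunits and activators, plus Nfe2l1, Pomp, Adrm1, Usp14, Uchl5 and Vcp. Values of 1 partner gene are not reported here. Members, lists and tests were chosen with earlier results of these data known.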

Additional observations from a re-analysis of the deposited data

Results flagged for a closer look

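The change that went with loss of Mfn2 differed between oocytes with and without Mfn1 for 4 of the 44 proteasome genes and 3 of the 35 partner genes measured, where 4.13% of all 11385 genes were called, by the interaction term of edgeR's fit with 3 pools in each of the 4 groups. A positive term means a higher value of Mfn1&2-/- over Mfn1-/- than of Mfn2-/- over WT. Among proteasome genes the term was 1.14 for the lid subunit Psmd7 (adjusted p = 0.0162 by edgeR), 0.80 for the alpha-ring subunit Psma4 (adjusted p = 0.0428 by edgeR), 0.54 for the base scaffold Psmd1 (adjusted p = 0.0377 by edgeR) and -2.85 for the beta-ring subunit Psmb5 (adjusted p = 0.0344 by edgeR), all on the log2 scale.

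Among the partner genes it was -4.48 for the phosphatase Ublcp1 (adjusted p = 0.00436 by edgeR), 1.18 for the polyubiquitin gene Ubb (adjusted p = 0.0337 by edgeR) and 0.49 for the import factor Akirin2 (adjusted p = 0.0458 by edgeR). The Psmd7 and Ublcp1 terms were called in every alternative. The Ubb term was lost without Mfn1-/- replicate 1 or 2, Mfn2-/- replicate 2 or 3, Mfn1&2-/- replicate 2 or WT replicate 2 or 3 (adjusted p = 0.056 to 0.0904 by edgeR) and with the replicate block (adjusted p = 0.0547), and that of Akirin2 was lost without Mfn1-/- replicate 1, 2 or 3, Mfn2-/- replicate 2 or 3, Mfn1&2-/- replicate 1, 2 or 3 or WT replicate 2 or 3 (adjusted p = 0.0521 to 0.112 by edgeR) and with RLE factors, library size alone or the replicate block (adjusted p = 0.0502 to 0.0781). Groups of 3 were not searched for outlying pools.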

How the results depend on the processing

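No call of a proteasome or partner gene changed sign in 792 refits: 602 kept the call and 190 lost it. For each call the refits include the one without a filter, which equals the main fit and could not lose a call. Mfn1 and Mfn2 were called lower in their knockouts in every alternative. Median log2 fold changes of the 44 genes against WT, which were not tested, moved by less than the spread between pools; that of Mfn1-/- turned to 0.01 with library size alone, and that of Mfn2-/- to -0.02 and -0.04 without Mfn2-/- replicate 1 and 3. Counts of called proteasome genes that moved by over 1.5 times were as follows, and the cause was not tested. For Mfn1&2-/- against WT the count was 0 with library size alone, limma-voom, the replicate block or only the groups compared. For Mfn1&2-/- against Mfn1-/- it was 0 with limma-voom, the replicate block or only the groups compared. For Mfn1&2-/- against Mfn2-/- it was 5 with the replicate block. For the interaction it was 2 with library size alone, 7 with DESeq2 and 2 with the replicate block. For Mfn1-/- against WT it was 1 with DESeq2. With each library left out in turn, counts ran from 2 to 10 for Mfn2-/- against WT, from 0 to 1 for Mfn1&2-/- against WT, from 0 to 1 for Mfn1&2-/- against Mfn1-/-, from 1 to 8 for Mfn1&2-/- against Mfn2-/- and from 1 to 3 for the interaction. All of them stayed at 0 for Mfn1-/- against WT.

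Whether replicate numbers pair the pools is not settled by the values. As deviations from group means, same-numbered pools of different groups correlated from -0.167 to 0.196, 4 of 18 pairs above 0.1. Of the 12 libraries, 7 were closest to their own number. Over all genes, library size alone in place of TMM moved the share of called genes that were higher from 39.7% to 49.8% in Mfn2-/- against WT, from 51.5% to 38.5% in Mfn1&2-/- against Mfn1-/-, from 60.1% to 48.2% in Mfn1&2-/- against Mfn2-/- and from 70.9% to 46.3% in the interaction, where the median of all genes shifted to -0.12. DESeq2 called 224 genes in Mfn1-/- against WT, where edgeR called 26. Depth limits Psme1, Psmb11, Psmb5, Psmg3, Psmb3 and Psme2, the 6 genes with a mean below 100 counts.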

Other observations

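Of the core genes, 3 more did not overlap between Mfn2-/- and WT pools without passing the test. With the called genes, 3 of 7 alpha-ring and 2 of 8 beta-ring genes did not overlap, beside 32% of all genes. Psma1, of the alpha ring, had 45.01, 46.002 and 48.2 CPM in Mfn2-/- pools, against 35.4, 27.3 and 31.1 CPM in WT pools, and Mfn1&2-/- pools had 27.4, 33.2 and 39.1 CPM. The log2 fold change of Mfn2-/- against WT was 0.57 ± 0.19 (adjusted p = 0.0597 by edgeR, 0.034 by DESeq2 and 0.0466 by limma-voom). Psmb3, of the beta ring, had 8.79, 8.30 and 12.6 CPM in Mfn2-/- pools, against 5.75, 6.75 and 3.51 CPM in WT pools (log2 fold change 0.89 ± 0.31, adjusted p = 0.0785 by edgeR). Psmb1, also of the beta ring, had 52.1, 48.6 and 53.3 CPM in Mfn2-/- pools, against 45.4, 46.7 and 42.9 CPM in WT pools (log2 fold change 0.19 ± 0.13, adjusted p = 0.407 by edgeR). These genes were chosen after their values were seen.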
